A study of Mus musculus with 2 samples.

Results

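The genes described here encode the epidermal growth factor (EGF) receptor and its partners Erbb2 and Erbb3, the receptor ligands Areg, Ereg, Tgfa and Hbegf, and the feedback inhibitors of the ERK cascade Dusp6, Spry2 and Spry4. They were taken by name from the array files, where these 10 genes have 24 of the 41174 gene probes. All RNA came from the pyloric stomach of 20 mice with the knock-in allele Lgr5-EGFP-ires-CreERT2, through which the Lgr5 promoter drives green fluorescent protein and a tamoxifen-dependent Cre. Age, sex and any treatment of the mice are not given in the sources used here. Dissociated cells were sorted into a population with bright green fluorescence (GFPhigh) and one with weak fluorescence (GFPlow), each pooled over the mice, and there was no sample of unsorted cells or of mice without the knock-in. The RNA of both populations was hybridised together on 2 Agilent mouse arrays with exchanged dyes, so that GFPhigh carried Cy3 on array 1 and Cy5 on array 2. Since each population is 1 RNA sample, the arrays are repeat measurements, the SD of a value covers technical error alone, and no test between the populations was possible. The comparison asks how genes of this pathway differ between cells with high and low activity of the Lgr5 locus, a stem cell marker gene.

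The EGF receptor and its relatives are receptor tyrosine kinases of the cell surface that pair up when a ligand binds and pass the signal through RAS, RAF and MEK to the kinase ERK. The ligands are made as membrane-bound precursors and are released by sheddases. Active ERK induces its own inhibitors, among them the phosphatase Dusp6, which removes phosphate from ERK, and the Sprouty proteins, which act upstream of it. In the stomach, EGF receptor ligands are known for promoting growth of the mucosa, and an excess of Tgfa leads to expansion of the mucous cells that line its surface.

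Dusp6 was the member with the largest ratio, 2.14-fold higher in GFPhigh, and its ratios on the 2 arrays were close to each other. The 3 receptors had log2 ratios below 0 that stayed within 2-fold, Spry2 was above 0 on both arrays by a similar size, Hbegf had opposite signs on the arrays, and the ligands Areg, Ereg and Tgfa and the inhibitor Spry4 gave no signal well above background in either population. A gene was called when its ratio reached 2-fold in the same direction on each array. Of the 6 members that could be compared, 1 was called higher in GFPhigh and 0 higher in GFPlow. Among all 7830 genes compared, 1.76% were called higher in GFPhigh and 2.69% higher in GFPlow, and a count of 1 gene among 6 says nothing about the members as a group. The median log2 ratio of GFPhigh over GFPlow was -0.09 over the 6 members and -0.06 over all genes compared.

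The probes that carry these results are shown by the first 30 of their 60 bases, 5′ to 3′, since each value below is the binding of labelled RNA to 1 such oligonucleotide. Those of Hbegf and Spry4 are not shown. The Egfr lines show the pair of probes that were spotted repeatedly and that were designed on different transcripts of the gene. The Areg line shows a ligand probe too dim to compare.
Dusp6 (NM_026268): catttggtggatgcaacaggttgagaggaa
Spry2 (NM_011897): ccccccttttaacacatatgcaaccaacta
Egfr (NM_207655): gttgcaagccactctaactgtagcaatgaa
Egfr (NM_007912): caagaggttaacactacggactagccattc
Erbb2 (NM_001003817): ggctatgccaggaacgtgccctgaggaacc
Erbb3 (BC049279): gttgcagatacacactcattacaagccaat
Areg (NM_009704): ctcagaggagtatgataatgaaccacaaat

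Per the array files, which use the mouse build mm9, the Dusp6 probe lies at chr10:98729985-98730044, the Spry2 probe at chr14:106291901-106291960 and the Areg probe at chr5:91570090-91570149. The Egfr probes lie at chr11:16813815-16813874 (NM_207655) and chr11:16787385-16787444 (NM_007912). The Erbb2 probe lies further along the same chromosome, at chr11:98298103-98298162, and the Erbb3 probe at chr10:128004749-128004808. Exons and untranslated regions are not named for the probes, as annotation of mm9 was not used.

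Detection differed between the channels. Of the gene spots, 28.6% on array 1 and 18.7% on array 2 were well above background in GFPhigh, against 25.1% on array 1 and 31.7% on array 2 in GFPlow, and 0 gene spots were saturated. The share was the lowest in GFPhigh on array 2, so a member that missed detection in that channel alone is named below. A gene was compared when a probe was well above background on both arrays in its brighter population, which left 9499 probes of 7830 genes. Between the arrays, the ratios of these probes had a Pearson r of 0.595 and a Spearman rho of 0.474, over probes, which are not independent replicates. The array-to-array difference of a probe had an SD of 0.56 on the log2 scale. It is the spread of a difference between 2 single arrays, so mean ratios over both arrays cannot be set against it directly.

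The sorted cells carried epithelial RNA, with all 5 epithelial markers above background in every channel, while none of the 5 endothelial markers, 2 of the 10 immune markers (Cd14 and Fcer1g) and 2 of the 9 fibroblast and smooth muscle markers (Col1a2 and Acta2) could be compared. Ptprc, Pecam1 and Pdgfra, defining markers of immune cells, endothelium and fibroblasts, had no channel above background. The populations differed in epithelial cell types. Markers of surface mucous (pit) cells, which line the stomach surface, summed to a background-subtracted intensity of 19965 and 10319 in GFPhigh on arrays 1 and 2, against 232155 and 376604 in GFPlow, and all 4 of them were called higher in GFPlow. Markers of gland mucous and neck cells summed to 739097 and 441859 in GFPhigh and to 200554 and 292819 in GFPlow, and 3 of 5 were called higher in GFPhigh. Enteroendocrine markers (4 of 5) and proliferation markers (4 of 6) were called higher in GFPlow. Proliferation markers summed to 1612 and 768 in GFPhigh, against 5329 and 11051 in GFPlow. The part of this cell make-up in the members' differences was not tested.

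**Figure D1:**
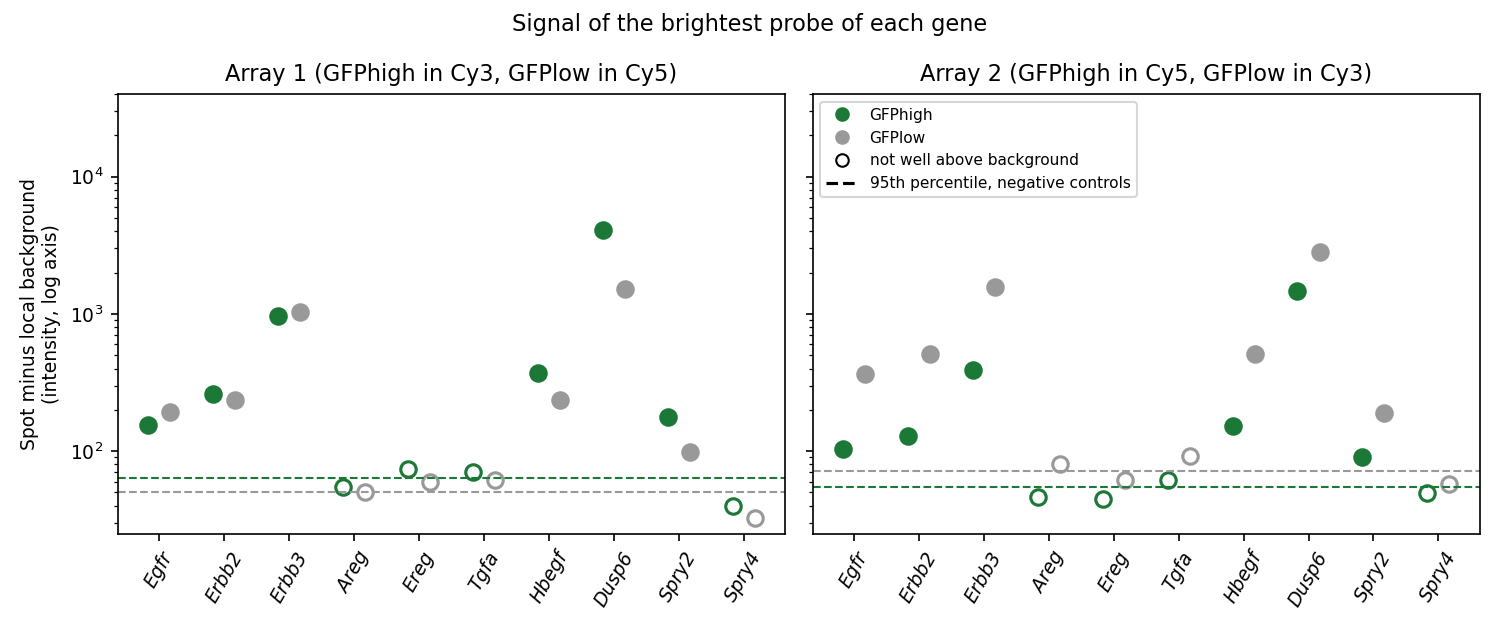
Background-subtracted intensity (log axis) of the brightest probe of each gene, with array 1 on the left, array 2 on the right, GFPhigh in green and GFPlow in grey. Open circles mark channels not well above background, and dashed lines show the 95th percentile of the negative control spots of each channel; Areg, Ereg, Tgfa and Spry4 have open circles in all channels, with Spry4 below the lines and Tgfa slightly above them, and Dusp6 lies far above.

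Among the ligands, only Hbegf could be compared. Hbegf encodes heparin-binding EGF-like growth factor, a membrane-anchored ligand that binds Egfr and Erbb4. On a log2 scale of normalised intensity, its level was 8.46 and 8.28 in GFPhigh on arrays 1 and 2, against 8.23 and 8.34 in GFPlow. The levels of the populations overlapped. Overlap, here and below, compares repeat measurements of 1 RNA sample per population, and the share of all genes without overlap is not given. The arrays gave log2 ratios of 0.23 and -0.06, with a mean of 0.09 ± 0.20 (SD of 2 arrays), so its sign differed between the arrays. With the scanner software's own ratios it was 0.24 on array 1 and 0.25 on array 2, the same sign on both. Its 1 probe lies on chromosome 18 between positions 36664738 and 36664797.

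Areg, Ereg and Tgfa were not well above background in any channel. Areg encodes amphiregulin, a ligand of Egfr alone, and its probe gave an intensity over local background of 55.2 and 46.2 in GFPhigh, against 50.5 and 80.2 in GFPlow. The 95th percentile of the 153 negative control spots of each array was 63.8 and 54.4 in GFPhigh and 50.7 and 71.8 in GFPlow, so that only GFPlow on array 2 lay above it. Ereg encodes epiregulin, which binds Egfr and Erbb4, and is represented by 2 probes on chromosome 5. The probe for the epiregulin transcript NM_007950, at positions 91521659 to 91521720, stayed below that percentile in all channels, at 44.4 and 23.8 in GFPhigh and 24.8 and 40.5 in GFPlow. The other probe carries the gene's name but was designed on the clone sequence AK019057, lies 40685 bases away at positions 91480914 to 91480973, and is listed in the opposite order of coordinates, so whether it measures Ereg is uncertain. It gave 74.5 and 44.8 in GFPhigh and 59.9 and 62.0 in GFPlow.

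Tgfa encodes transforming growth factor alpha, an Egfr ligand, and was measured with more spots than any other ligand. One of its probes, on chromosome 6 between 86224838 and 86224897, was printed 10 times per array, and 9 of these spots passed the quality marks on each array. Its mean intensity over background was 62.9 and 45.4 in GFPhigh and 44.5 and 71.0 in GFPlow, below the negative control percentile in all channels. Even so, 8 of 9 spots of GFPhigh on array 1 and 6 of 9 spots of GFPlow on array 2, both in Cy3, had a p-value against the local background below 0.01 in the scanner software, while in Cy5 the counts were 0 of 9 for GFPhigh on array 2 and 2 of 9 for GFPlow on array 1. The spots thus passed this p-value limit mainly in the Cy3 channel of either population. The negative control spots lay over local background in both dyes, further in Cy3. Their medians were 51.1 (GFPhigh, array 1) and 55.1 (GFPlow, array 2) in Cy3 and 38.8 (GFPhigh, array 2) and 36.1 (GFPlow, array 1) in Cy5. The second Tgfa probe, at 86222191 to 86222250, lay slightly above the percentile in all channels, at 71.0 and 61.9 in GFPhigh and 61.3 and 92.0 in GFPlow, and was not well above background in any.

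Over all members, 15 of the 24 probes had no channel well above background. Of their 60 channels, 16 lay above the 95th percentile of the negative controls, and the mean log2 ratios of these dim probes ran from -0.25 to 0.12. At this signal a difference between the populations in Areg, Ereg, Tgfa or Spry4 was not detectable, and the values do not show that the genes are silent.

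Of the 7 other EGF family ligands, 6 had probes (Egf, Btc, Epgn, Nrg1, Nrg3 and Nrg4) and 0 could be compared. Btc, which encodes betacellulin, reached 1 channel above background with its best probe, and the other 5 reached none. Hbegf was the one ligand of this family above background in both populations.

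The receptors had mean log2 ratios below 0, each within 2-fold. In bulk samples such as these, fewer cells that express a gene and less RNA of it per cell cannot be told apart. Egfr, the receptor for all 4 ligands described above, was measured best by a probe for NM_207655, the transcript of the full-length receptor, which was printed 10 times per array. Its log2 level was 7.38 and 7.71 in GFPhigh on arrays 1 and 2, against 7.97 and 7.97 in GFPlow. Both GFPhigh values lay below both GFPlow values. This gave log2 ratios of -0.59 and -0.26 with a mean of -0.42 ± 0.24, which is 1.34-fold higher in GFPlow, and 19.8% of the compared genes had a lower ratio. On array 1 all 7 spots used were below 0, between -0.78 and -0.45, and on array 2 this held for 7 of 9 spots, between -0.56 and 0.22.

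The Egfr probes did not all read alike. NM_007912 is the transcript of a shorter Egfr form that ends before the membrane anchor and the kinase domain, and its probes lie at least 24736 bases from those of the full-length transcript. The repeated probe for it had a log2 level of 7.01 and 6.78 in GFPhigh, against 6.87 and 7.09 in GFPlow, and was well above background in GFPhigh on array 1 and in GFPlow on array 2, in both cases the Cy3 channel. All 9 of its spots on array 1 were above 0 and all 8 on array 2 below 0, with mean log2 ratios of 0.14 and -0.31. The spots of an array thus had 1 sign and the arrays had opposite signs, so that repeated spots did not stand in for further arrays. A single-spot probe of the same transcript, at chr11:16783545-16783604, gave 0.18 and 0.06. The 3 remaining Egfr probes, 1 for NM_207655 and 2 for the clone sequences AK033431 and AK049452, had no channel above background.

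**Figure D2:**
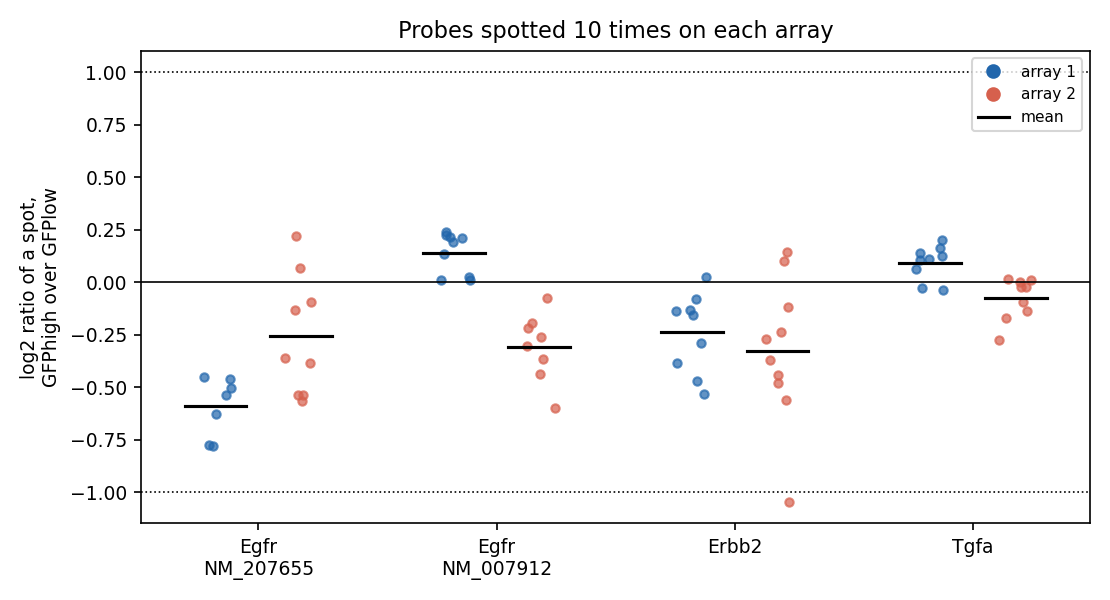
Log2 ratio of GFPhigh over GFPlow of each spot of the 4 member probes that were printed 10 times per array, in one colour per array, with black bars for the mean over the spots of an array. The Egfr NM_207655 and Erbb2 spots lie mostly below 0 on both arrays, whereas the Egfr NM_007912 spots lie above 0 on array 1 and below 0 on array 2.

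Erbb2 encodes the family member without a known ligand of its own, the preferred partner of the other receptors. Its repeated probe had a log2 level of 8.00 and 8.03 in GFPhigh, against 8.23 and 8.36 in GFPlow, so that both GFPhigh values were the lower ones. Its log2 ratios of -0.24 and -0.33 averaged -0.28 ± 0.06. Below 0 were 8 of 9 spots on array 1 and 8 of 10 on array 2, over a range of -0.53 to 0.02 on array 1 and -1.04 to 0.14 on array 2. The second Erbb2 probe, at chr11:98295824-98295883, was dim in all channels.

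Erbb3 encodes a neuregulin receptor with little kinase activity that signals through its partners. Its 1 compared probe, designed on the clone sequence BC049279, had a log2 level of 9.73 and 9.70 in GFPhigh and 10.21 and 9.77 in GFPlow. The 2 arrays gave -0.48 and -0.07 as log2 ratios and a mean of -0.28 ± 0.29, which is no larger than the spread between the arrays. The other 4 Erbb3 probes, all for NM_010153, had no channel above background, and 1 of them is mapped over 289 bases, more than its own length. Since probes differ in how strongly they bind, their levels give no order of the receptors. Erbb4, the fourth receptor of the family, was below background in all channels.

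Among the ERK feedback inhibitors, Dusp6 stood out. The background-subtracted intensity of its 1 probe was 4103 and 1478 in GFPhigh on arrays 1 and 2, against 1523 and 2837 in GFPlow. In both populations the Cy3 signal was the brighter one, and after normalisation of the dyes the log2 level was 11.78 and 11.66 in GFPhigh and 10.74 and 10.50 in GFPlow. Both GFPhigh levels were above both GFPlow levels. The log2 ratios of 1.04 on array 1 and 1.16 on array 2 averaged 1.10 ± 0.08, which is 2.14-fold higher in GFPhigh. Of the compared genes 2.50% had a higher ratio. Array 1 was close to the 2-fold limit, at a log2 ratio of 1, that decides the call.

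The size of the Dusp6 difference depended on how the dyes were balanced. With the centre of each array set by its median in place of the intensity-dependent loess curve, the Dusp6 log2 ratio was 1.36 (array 1) and -0.70 (array 2), with a mean of 0.33, while the median of all genes moved to -0.49. With 10 spike-in RNAs set to a mean of 0 after loess, which lowers every log2 ratio by 0.78, it was 0.31, and the median of all genes was -0.81. Under both Dusp6 was no longer counted as 2-fold. Relative to the median of all genes the Dusp6 log2 ratio was 1.16 as reported, 0.82 with median centring and 1.13 with spike-in centring. Spike-in centring lowers every ratio alike, so its value could differ from the reported one only through which probes were compared. Spike-in centring put Egfr at -1.21 and Erbb2 at -1.07, which were then called higher in GFPlow. Dusp6 is therefore described as higher relative to the average gene of these samples.

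**Figure D3:**
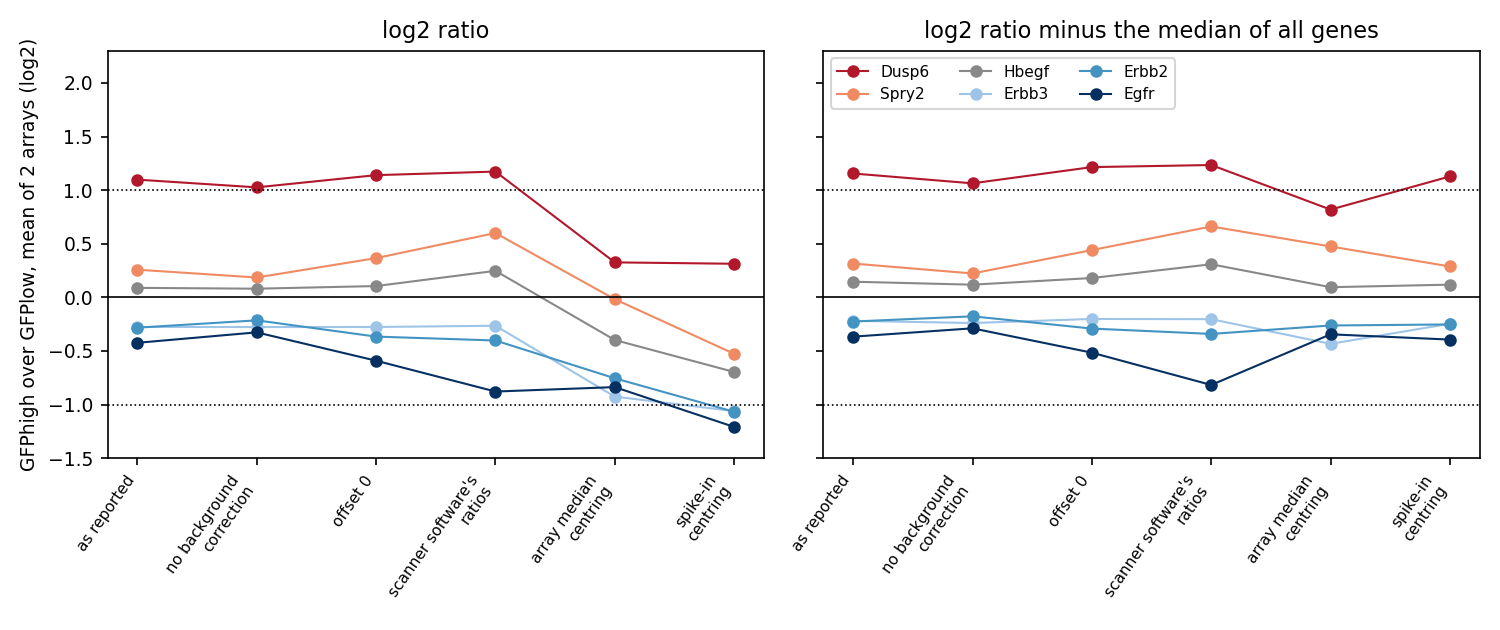
Mean log2 ratio of GFPhigh over GFPlow of the 6 compared members under 6 ways of processing the signals, with the ratio itself on the left and the ratio minus the median of all genes on the right; dotted lines mark 2-fold. Dusp6 lies between 0.31 and 1.17 on the left and between 0.82 and 1.23 on the right.

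Spry2 encodes a Sprouty protein that restrains receptor tyrosine kinase signalling upstream of ERK. Its brighter probe had a log2 level of 7.57 and 7.41 in GFPhigh, against 7.20 and 7.26 in GFPlow. Both GFPhigh values were slightly above both GFPlow values. Log2 ratios of 0.37 and 0.15 gave a mean of 0.26 ± 0.15. With both of the centrings named above, the mean was below 0 for Spry2 as well as for Hbegf. A second Spry2 probe, at chr14:106291385-106291444, gave 0.34 and -0.03 and missed detection in GFPhigh on array 2.

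Spry4, a Sprouty gene of the same kind, was at background with both probes. The intensities of its brighter probe, which is mapped over only 14 bases of chromosome 18 (38745898 to 38745911), were 39.6 and 49.2 in GFPhigh and 32.3 and 58.1 in GFPlow. The other probe, at 38745923 to 38745982, gave 49.0 and 36.3 in GFPhigh and 39.1 and 38.5 in GFPlow. All of these were below the negative control percentiles.

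**Figure D4:**
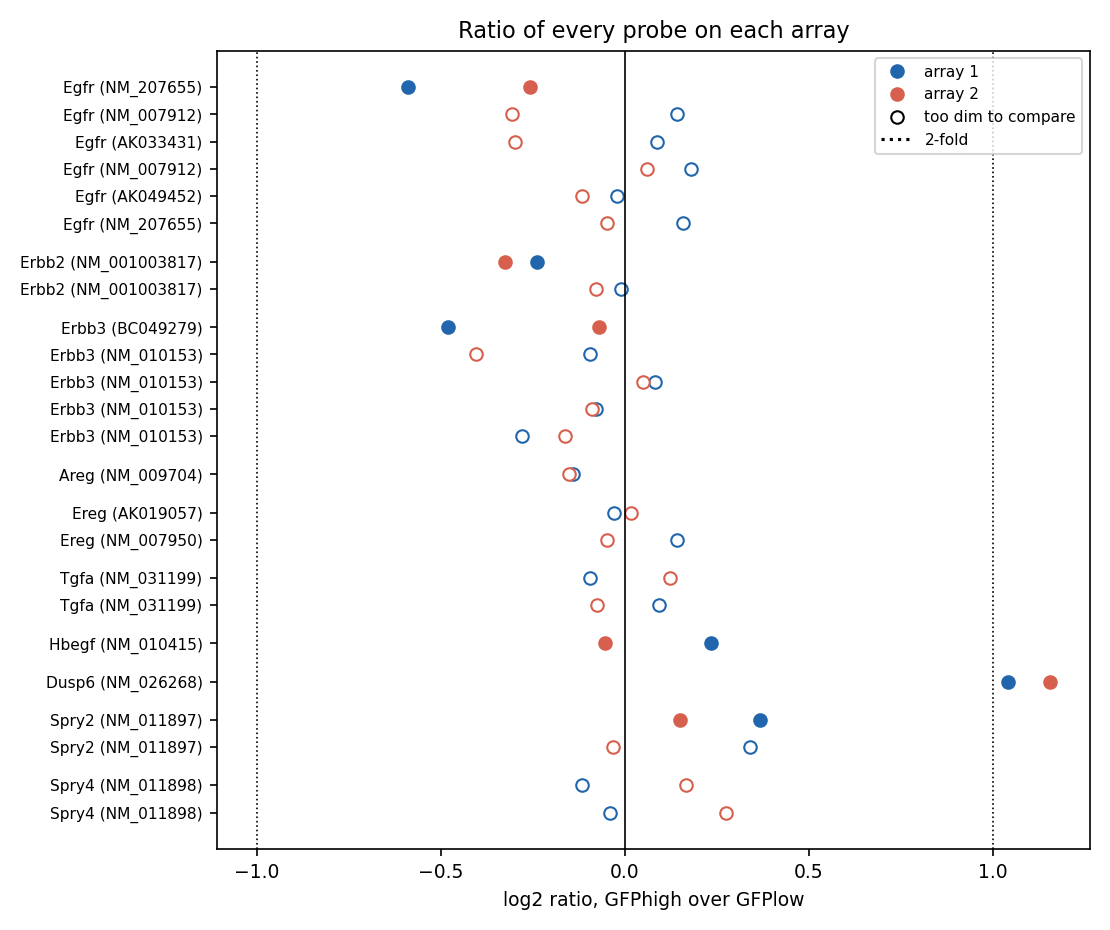
Log2 ratio of GFPhigh over GFPlow of each of the 24 member probes on array 1 and on array 2, grouped by gene; open circles are probes too dim to compare and dotted lines mark 2-fold. The Dusp6 probe alone lies past 2-fold on both arrays, at 1.04 and 1.16.

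The wider pathway was described with 88 further genes in 8 lists, of which 86 were on the arrays and 41 could be compared. Called higher in GFPhigh was 1 gene (2.44% of the 41), and 2 genes (4.88%) were called higher in GFPlow. Among all compared genes these shares were 1.76% and 2.69%, and the median log2 ratio of the 41 genes was 0.06. The called genes were Lrig1 towards GFPhigh and Myc and Epha2 towards GFPlow.

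Lrig1, a membrane protein that marks stem cells in several epithelia and promotes degradation of Egfr, was higher in GFPhigh. Its log2 level was 11.56 and 11.30 in GFPhigh, against 9.91 and 10.12 in GFPlow, with no overlap. Its log2 ratios were 1.66 and 1.18, averaging 1.42 ± 0.34 or 2.68-fold (probe at chr6:94554681-94554740). With median centring it was 0.68 and with spike-in centring 0.64, neither of them counted as 2-fold. Of the other restrainers of the receptor, Errfi1, an inhibitor of the Egfr kinase that ERK signalling induces, was at 0.53 ± 0.12 and positive on both arrays. Lrig3 had opposite signs on the arrays, at 0.30 and -0.71. Of the 9 genes of this list 3 could be compared, and Cbl, Cblb and Socs5 were below background with all probes.

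Of the sheddases and trafficking factors that release the ligands, 3 of 8 could be compared and 0 were called. Adam17, the main sheddase of Egfr ligands, was at -0.22 ± 0.10 and above background in GFPhigh on 1 array. Rhbdf2, a partner that Adam17 needs to reach the cell surface, was at -0.20 ± 0.43 with signs that differed between the arrays. Like Adam17, it was above background in GFPhigh on 1 array. Adam9 was at 0.06 ± 0.56. Of 10 adaptors and regulators of RAS 3 could be compared and 0 were called. Ptpn11, a phosphatase that carries the signal towards RAS, was at -0.29 ± 0.06, the adaptor Frs2 at 0.26 ± 0.15 and the adaptor Grb2 at 0.07 ± 0.76.

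The RAS, RAF, MEK and ERK kinase list was measured best, with 11 of 14 genes compared and 0 called. Its median log2 ratio was -0.20, and 6 genes were below 0 on both arrays and 1 above. Hras was at -0.36 ± 0.15. The ERK-activated kinase genes Rps6ka1 and Rps6ka3 were at 0.48 ± 0.83 and -0.48 ± 0.23. For Rps6ka3, both arrays left GFPhigh below the background limit, and its log2 ratios were -0.31 and -0.64. Its mean GFPlow level was 1.38-fold that of GFPhigh, with GFPhigh raised to the lowest level well above background where it lay lower. That value leaves out the spread between the arrays and is not a lower limit of the difference.

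Of the other phosphatases and Sprouty family genes that ERK signalling induces, 4 of 11 on the arrays could be compared and 0 were called, so Dusp6 was the one gene of this kind past 2-fold. All 4 had mean ratios above 0, 3 of them on both arrays, with a list median of 0.22. Over all genes compared the median was -0.06, and 4 genes are too few to describe the list. Dusp4, a nuclear ERK phosphatase, was at 0.40 ± 0.48, Spry1 at 0.24 ± 0.06, Dusp1 at 0.21 ± 0.15 and the cytoplasmic ERK phosphatase Dusp7 at 0.16 ± 0.61 with opposite signs on the arrays. The ratios of Dusp4 and Dusp7 were smaller than their own SD of the 2 arrays, and those of Spry1 and Dusp1 were larger. With median centring the list median was -0.16 and with spike-in centring -0.57.

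Among transcription factors and targets induced by ERK, 12 of 19 could be compared, 0 were called higher in GFPhigh and 2 higher in GFPlow. Myc, a transcription factor that drives cell growth, had a log2 level of 7.00 and 7.35 in GFPhigh, against 8.56 and 8.59 in GFPlow, and a log2 ratio of -1.40 ± 0.23 (probe at chr15:61821516-61821576). Its GFPhigh signal was well above background on 1 array only. Over its 2 compared probes the log2 ratio averaged -1.10, closer to 0 than with the probe shown, and Myc was still called. Epha2, an ephrin receptor induced by ERK, had a log2 level of 7.69 and 7.62 in GFPhigh, against 8.74 and 8.82 in GFPlow, and a log2 ratio of -1.13 ± 0.11 (probe at chr4:140885139-140885198). Both genes were lower in GFPhigh on each array, as the call requires, and their levels did not overlap. Without background correction the log2 ratio was -1.03 for Myc and -0.85 for Epha2, and neither was called. With the scanner software's ratios Myc was at -2.47, and it could not be compared when both populations had to be above background. With median centring Epha2 averaged -1.60 but did not reach 2-fold on each array.

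The other targets moved less. Etv5, an ETS transcription factor induced by receptor tyrosine kinase signalling, had a log2 ratio of 0.64 on each array, with GFPlow above background on 1 array only. Ier2 was at 0.44 ± 0.27, Egr1 at -0.42 ± 0.24 and Phlda1 at -0.53 ± 0.58. Immediate early genes such as Ier2 and Egr1 also respond to tissue dissociation. Of 12 genes known for that response, Ier2 and Egr1 among them, 11 could be compared and 0 were called in either direction. The median log2 ratio was 0.06, with a range from -1.03 (Hsph1, past 2-fold on 1 array only) to 0.44 (Ier2). The summed intensity over background of the 12 genes was 14201 and 6691 in GFPhigh on arrays 1 and 2, against 12890 and 24587 in GFPlow. In each population the Cy3 channel was the brighter one.

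Other receptor tyrosine kinases of epithelia feed into the same cascade. Of 9 listed, 5 could be compared and 0 were called. Fgfr4 had the highest ratio of them, with 1.43 and 0.70 on the arrays and a mean of 1.07 ± 0.51 that passed 2-fold on 1 array only. Igf1r, the receptor of insulin-like growth factor, was at 0.89 ± 0.05 with GFPlow above background on 1 array. Below 0 on both arrays were Epha1 at -0.72 ± 0.49, Mst1r, the receptor of macrophage-stimulating protein, at -0.42 ± 0.29, and Met, the receptor of hepatocyte growth factor, at -0.35 ± 0.04. Met was above background in GFPhigh on 1 array only. The receptors thus held ratios in both directions, and Egfr, Erbb2 and Erbb3 lay within their range.

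**Figure D5:**
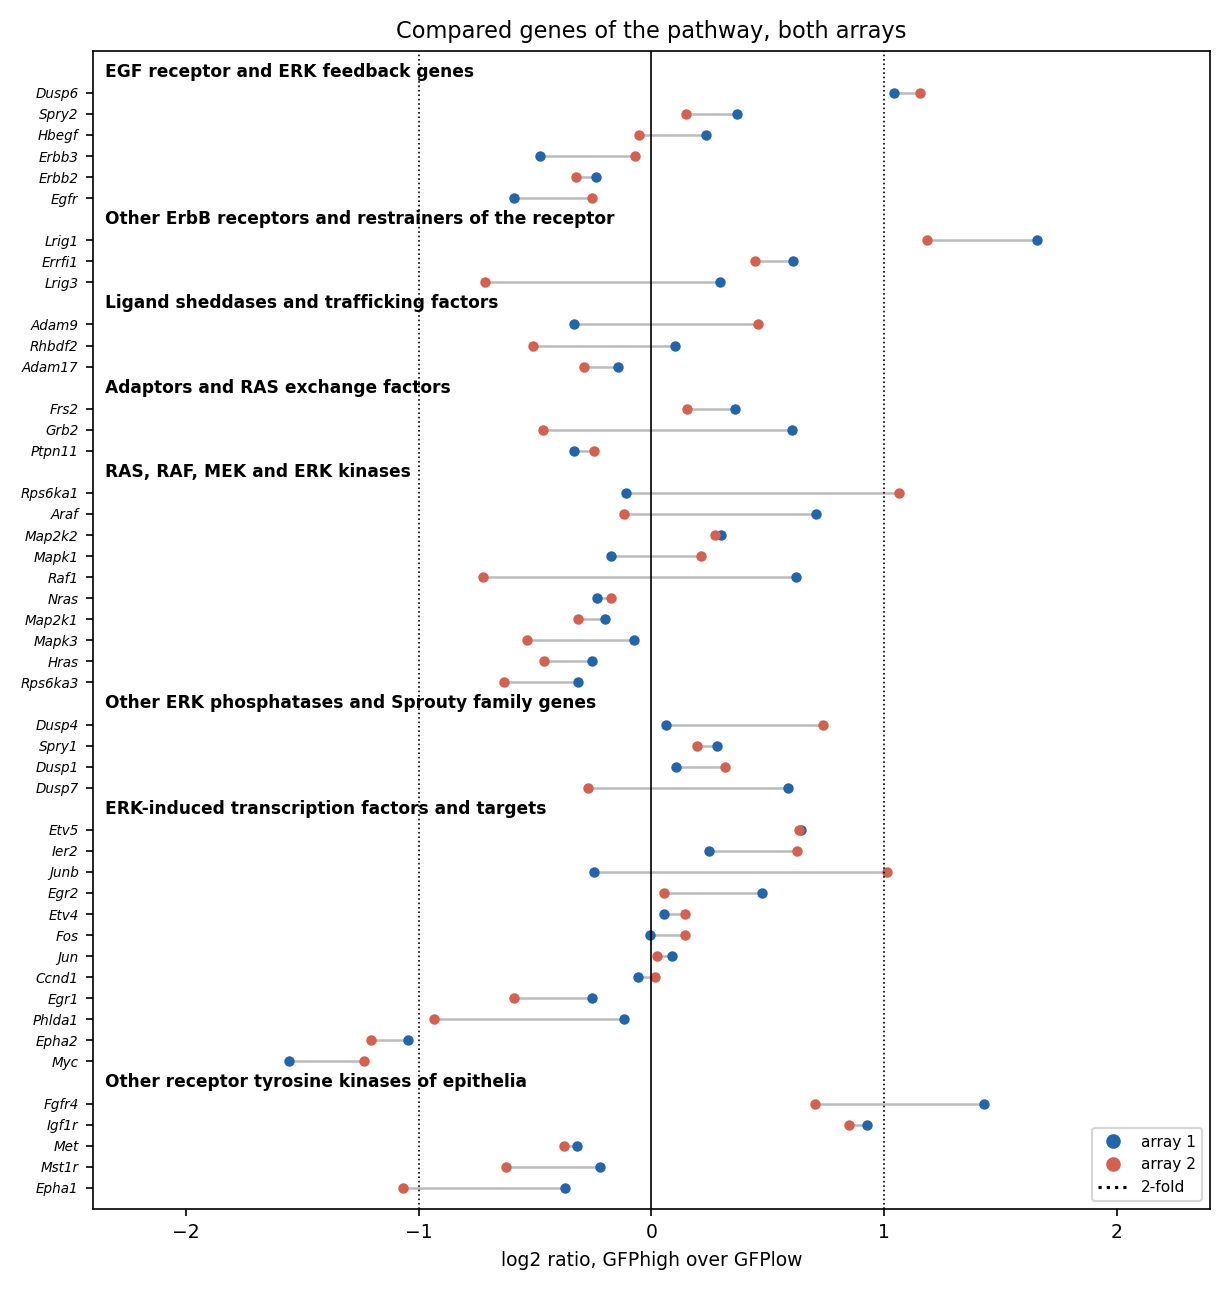
Log2 ratio of GFPhigh over GFPlow of compared pathway genes on array 1 and array 2, grouped by list; dotted lines mark 2-fold. Lrig1 lies past 2-fold towards GFPhigh on both arrays, at 1.66 and 1.18, and Myc and Epha2 lie past it towards GFPlow.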

How the data were processed

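Per the file headers, the authors deposited scanner output of Agilent Feature Extraction: mean intensity and local background intensity per channel, background flags, a p-value of each spot against background, and the log10 ratio of processed Cy5 over Cy3. The headers name version 10.5.1.1, the submitters' processing notes 9.5.3. A deposited value table holds the same log10 ratios turned to GFPhigh over GFPlow, differing by at most 0.005, with medians of 0.0188 (array 1) and -0.0458 (array 2), and is empty at 22558 and 24241 spots whose ratio is 0. Both arrays share 1 slide and 1 scan time, so no batch was modelled.

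In limma 3.58.1 (R 4.3.3), mean intensities were background-corrected (normexp, offset 50), which pulls ratios of dim probes towards 0, and dye-normalised by loess array by array, giving control spots a weight of 0. Flagged spots were left out. Spots of a probe were averaged, and a probe counted as well above background where at least 50% of its spots were. Each gene is represented by its compared probe of highest signal and was called where the ratio was at least 2-fold in 1 direction on each array. Log2 levels per channel were scaled with Aquantile and are not comparable between probes. For a gene seen in 1 population only, its mean level there was set against the other population. The other level was the higher, per array, of the dim probe's level and the lowest level well above background. Per the labels, 150 ng of RNA was labelled per channel; the number of arrays limits the precision.

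Members and lists were chosen with earlier results of these data known. Named were all members and, per list, every called gene and otherwise up to 4 compared genes of largest absolute ratio, besides genes named only as too dim to compare. Met was added after its values were seen. The values of 1 listed gene are not reported here. Of the 41174 probes, 33096 were named through a RefSeq gene table and 8078 kept the file's name. The steps were tested on simulated data. Alternatives covered background correction, signals, centring, filters, probe rule, threshold and single arrays.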

Additional observations from a re-analysis of the deposited data

How the results depend on the processing

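Under 13 alternatives, Dusp6 remained the 1 member called higher in GFPhigh in all but median and spike-in centring, where the count was 0, and 0 members were called higher in GFPlow except under spike-in centring, where Egfr and Erbb2 made 2. Counts over all genes, given as higher in GFPhigh against higher in GFPlow, were 138 and 211 as reported. They were 213 and 343 with an offset of 0, 352 and 512 with the scanner software's ratios, 352 and 508 with the value table, 10 and 215 with median centring, 21 and 1642 with spike-in centring, and 438 and 587 at 1.5-fold. Requiring both populations above background gave 125 and 139, and no background correction 93 and 145. On a single array the counts were 347 to 371 and 397 to 497. There 1 array had to pass in place of 2, and 9113 genes (array 2) or 9435 genes (array 1) were compared. The cause of these changes in the counts was not tested. The mean log2 ratio of Dusp6 was above 0 in all 12 alternatives computed for it, from 0.31 to 1.17. Those of Egfr (-1.21 to -0.26), Erbb2 (-1.07 to -0.21) and Erbb3 (-1.06 to -0.07) were below 0 in all 12. Changing the filter or the probe rule left these values unchanged, and the value table repeats the scanner software's ratios. Median and spike-in centring also lowered the median of all genes, to -0.49 and -0.81. Relative to the median of all genes in each setting, Dusp6 stayed above 0 and Egfr and Erbb2 below 0. Erbb3 was at 0.07 relative to it on array 2 alone and below 0 otherwise. With spike-in centring these signs carry over from the reported values, since every ratio is lowered alike and only the probes compared change. Hbegf ran from -0.70 to 0.25 and Spry2 from -0.53 to 0.60. No paired analysis was possible because both arrays hold the same pair of RNA samples. The median of the RAS, RAF, MEK and ERK kinases was below 0 in all 12, from -0.99 to -0.02, the last over 8 genes when both populations had to pass the filter, and the other list medians changed sign. Signal over background limited the comparison, since 15 of 24 member probes were not well above it in any channel.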
